A study of Macrobrachium nipponense with 6 samples.

Results

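Bantam is a microRNA first known from Drosophila, where it promotes tissue growth and blocks programmed cell death, in part by repressing the cell death gene hid. In flies its transcription is raised by Yorkie, the coactivator at the end of the Hippo pathway. The precursor hairpin gives a product from each arm, and the 3p product is the one known to repress targets, which it finds through its seed, bases 2 to 8.

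The bantam probes were read on arrays hybridised with RNA of Macrobrachium nipponense, the oriental river prawn, which is a decapod crustacean. They were chosen by name, as all probes called bantam after the species prefix, which gave 11 of the 2546 miRNA probes. Each of the 6 samples pooled 4 tissues, namely muscle, gill, hemocytes and hepatopancreas, and its total RNA was read on 1 single-colour array. Of these, 3 samples came from normoxia at 6.5 ± 0.2 mg O2 per L and 3 from hypoxia at 2.0 ± 0.1 mg O2 per L, each named for 24 h. The labels do not say whether the samples of a group came from separate animals, so the tests measure the spread between these samples, which may be technical. In a pool, fewer cells of a tissue and less RNA per cell cannot be told apart.

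All targets on the array are sequences of other species or predicted ones, so a signal shows RNA that hybridises to a probe and not that the prawn carries exactly that sequence. By their prefixes the bantam targets come from honeybee (ame), pea aphid (api), tobacco hornworm (mse), fly (dme), 3 mosquitoes (aae, cqu and aga), silkworm (bmo) and flour beetle (tca). The 7 targets of the 3p arm are printed because the signals described here divided by their base 11. They are written 5′ to 3′ as the array files give them, with the seed in capitals.

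ame-bantam: uGAGAUCAuugugaaagcugauu
api-bantam: uGAGAUCAuugugaaagcuaauu
mse-bantam: uGAGAUCAuugugaaagcuaau
dme-bantam-3p: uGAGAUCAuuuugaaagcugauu
aae-bantam-3p: uGAGAUCAuuuugaaagcugau
cqu-bantam-3p: uGAGAUCAuuuugaaagcuga
aga-bantam: uGAGAUCAcuuugaaagcugauu

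All 7 share 1 seed, and none of the other probes on the array carried that seed at bases 2 to 8. Counted from the 5′ end, api-bantam differs from ame-bantam by G20A, and mse-bantam by G20A with 1 base fewer at the 3′ end. The difference of dme-bantam-3p from ame-bantam is G11U, also found in aae-bantam-3p, 1 base shorter at the 3′ end, and in cqu-bantam-3p, 2 bases shorter. The target of aga-bantam holds U9C and G11U. The other 4 probes name the 5p arm, the opposite strand of the hairpin, and have other seeds. For example, that of the fly is shown for contrast.

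dme-bantam-5p: cCGGUUUUcgauuugguuugacu

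Signals above background separated the probes into bright, intermediate and dim ones. A probe counted as detected on an array when its signal above local background exceeded 3 times the standard deviation among empty spots. Of the 66 readings of bantam probes 30 were detected, 29 of 42 for the 3p probes and 1 of 24 for the 5p probes. Probes differ in how well they bind, so signals of different probes are set side by side as readings and not as amounts of RNA.

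The honeybee form was the brightest bantam probe by mean. Above background, ame-bantam read 9047, 11953 and 8344 (intensity) on normoxia 1, 2 and 3 and 9974, 6804 and 12901 on hypoxia 1, 2 and 3. It ranked between 18 and 32 among the 2546 probes on each array. The readings of the groups overlap.

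The hornworm form was also bright, at 50.9% to 96.8% of the honeybee form on the same array. Its probe, mse-bantam, read 6869, 7738 and 4802 on the normoxia arrays and 9012, 6589 and 6569.6 on the hypoxia arrays, again with overlapping groups. The aphid form, api-bantam, read 7043, 8407 and 5138 in normoxia and 121, 6807 and 8331 in hypoxia. On 5 arrays the aphid and hornworm forms thus lay in the same range, and on hypoxia 1 the aphid form stood far below every other reading of these 3 probes.

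The probes with U at base 11 were far dimmer. The yellow fever mosquito form, aae-bantam-3p, read 180.1, 165 and 61.1 in normoxia, where the last value is below the limit, and 1399, 845 and 129 in hypoxia. Hypoxia 1 and 2 were high, and hypoxia 3 lay between the normoxia readings. The form named for Culex, cqu-bantam-3p, was detected on normoxia 2 at 81.9 and on hypoxia 1 and 2 at 191 and 115. The fly form dme-bantam-3p passed the limit at 115 on hypoxia 1 and at 75.02 on hypoxia 2, and aga-bantam at 28.6 on hypoxia 2.

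The 5p arm gave almost no signal. Its 4 probes read between -5.08 and 55.8 above background, and 3 of them were detected on no array. The exception was dme-bantam-5p, detected on hypoxia 2 at 36.0, where the limit was the lowest of the arrays at 27.8. The limit ranged up to 94.5, on normoxia 3, so a 5p product below such readings was not detectable. The 4 targets of the 5p arm also differ in sequence, and a prawn product unlike all of them could go unread at any level.

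Next it was asked whether bantam levels differed between the oxygen levels. Signals were normalized between arrays, log2 was taken, and limma was fitted over 339 probes, those with 3 of 3 arrays detected in either group. Of the bantam probes 4 entered, ame-, api- and mse-bantam and aae-bantam-3p, and 7 did not. The mosquito form aae-bantam-3p entered through hypoxia alone, as it was detected on 2 of 3 normoxia arrays. At an adjusted p of 0.05 none of the 4 passed, 0 higher and 0 lower (limma), and 0 of all 339 passed (0%). At an unadjusted p under 0.05 there were also 0 of the 4, beside 15 of the 339 (4.42%). The values of the groups did not overlap in 0 of the 4, beside 34 of the 339 (10.0%).

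For ame-bantam the normalized levels were 13.63, 13.32 and 12.98 (log2) in normoxia and 13.04, 13.32 and 13.39 in hypoxia. The means were 13.31 ± 0.33 (SD, n = 3) and 13.25 ± 0.18. Taken as hypoxia minus normoxia, the difference of the means was -0.06 on the log2 scale, with a 95% confidence interval of -0.71 to 0.59 (limma adjusted p = 0.965). The hypoxia values lay within the range of the normoxia ones, so the difference was smaller than the spread between samples.

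The probe mse-bantam read 13.10, 12.66 and 12.43 (log2) in normoxia and 12.89, 13.24 and 12.25 in hypoxia. Its change was 0.07 (-0.79 to 0.92, limma adjusted p = 0.971), with the highest and the lowest value both in hypoxia. For both probes the intervals leave room for changes of under 2-fold in either direction, and the sign of both changes turned under some alternatives.

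The probe api-bantam had a change of -1.59 (log2, -5.48 to 2.30, limma adjusted p = 0.918). It read 13.15, 12.83 and 12.53 in normoxia and 7.36, 13.36 and 13.01 in hypoxia. That change rested on 1 array: without hypoxia 1 it was 0.37 (limma adjusted p = 0.846), in the opposite direction.

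The spot of api-bantam on hypoxia 1 also had a high standard deviation of intensity within the spot, another column of the scanner tables. There the median was 227 before background was taken off, and the standard deviation 151, or 66.7% of the median. On the same array 79 miRNA probes had a median between 80% and 125% of that one. None of the 79 had a higher standard deviation, and their median standard deviation was 21.45, while mse-bantam on that array had a median of 9128 with 171. Relative to the median, 2 of the 2546 miRNA spots on this array had a higher one, mja-mir-6490-p5_1ss3CA (362 on a median of 317) and isc-miR-2b_R+1 (359.8 on 439.9), both brighter than the band. On the other 5 arrays the percentage for api-bantam was between 1.24% and 7.64%. The authors' deposited values hold the same low reading: for hypoxia 1, 2 and 3 they are 63.8, 10836 and 7765.

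The probe aae-bantam-3p had the smallest unadjusted p of the 4, at 0.0844, and a change of 1.51 (log2, -0.28 to 3.30, limma adjusted p = 0.870). As it entered through hypoxia, the group where it is high, its p-values do not count as support for a rise. It read 8.54, 7.49 and 7.53 in normoxia and 9.96, 10.35 and 7.79 in hypoxia, means of 7.85 ± 0.60 (SD, n = 3) and 9.36 ± 1.38. Hypoxia 1 and 2 lay above every normoxia array, and hypoxia 3 lay below normoxia 1. Leaving out hypoxia 3 gave 2.32 (limma adjusted p = 0.104), and leaving out hypoxia 1 and 2 together, chosen after seeing the data, gave -0.05.

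Variants were then compared within each array, which removes differences that all probes of an array share. Each of the other 3 tested probes was taken relative to ame-bantam, the brightest, and the difference was compared between the groups. With 3 arrays against 3, the exact two-sided permutation test cannot go below p = 0.1.

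In normoxia the aphid and hornworm forms held a steady distance from the honeybee form. The level of api-bantam minus that of ame-bantam was -0.49, -0.50 and -0.45 (log2), and that of mse-bantam -0.53, -0.67 and -0.55. In hypoxia the spread was wider: -5.68, 0.03 and -0.38 for api-bantam and -0.15, -0.08 and -1.14 for mse-bantam. The group difference was -1.53 for api-bantam (exact permutation p = 1, n = 3) and 0.12 for mse-bantam (exact permutation p = 1, n = 3), both 1 after adjustment over the 3 pairs. Without hypoxia 1 the difference for api-bantam was 0.33.

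The distance of aae-bantam-3p from ame-bantam was -5.09, -5.83 and -5.45 (log2) in normoxia and -3.09, -2.97 and -5.60 in hypoxia. It was smaller on hypoxia 1 and 2, while hypoxia 3 lay inside the normoxia range. The group difference was 1.57 (exact permutation p = 0.3, n = 3, adjusted p = 0.9 over the 3 pairs), and ran from 1.13 to 2.43 with single arrays left out. Without hypoxia 1 and 2 it was -0.12.

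Of the 4 dim 3p probes, aae-, cqu- and dme-bantam-3p were high together on hypoxia 1 and 2, and aga-bantam was not high on hypoxia 1. As a share of the ame-bantam signal above background, aae-bantam-3p made 1.99%, 1.38% and 0.732% on the normoxia arrays and 14.0%, 12.4% and 1.00% on the hypoxia arrays. For cqu-bantam-3p the share was 0.0426% to 0.685% in normoxia and 1.92%, 1.69% and 0.107% in hypoxia, and for dme-bantam-3p 0.0788% to 0.345% and 1.15%, 1.10% and 0.194%. The share of aga-bantam was 0.0540% on hypoxia 1, inside its normoxia range of 0.00366% to 0.302%, and 0.420% on hypoxia 2, above that range. Its reading on hypoxia 2, 28.6, passed the limit of 27.8 by little. On normoxia 2 aga-bantam read higher, at 36.0, but below the limit of 67.6 on that array. Many of these lowest shares rest on readings below the detection limit. The targets of the first 3 differ from each other by their 3′ end alone, so their readings are not independent.

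For 1 set of calibration probes a ratio of signals was high on the same arrays. On hypoxia 1 and 2 the mean signal of the spike probes named 3M was 10.8% and 7.14% of that of the 3P probes, beside 1.22% on hypoxia 3 and 1.87% to 3.73% in normoxia. A second set, PUC2MM as a percent of PUC2PM, gave 54.1% on hypoxia 1, while 31.8% on hypoxia 2 lay close to 27.8% on normoxia 2. The files do not say what 3M and 3P stand for, and the part of this in the higher readings of the dim bantam probes was not tested.

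Other miRNAs with a known place in the same processes were read from the same fit. Of the fly miRNAs that act on cell death genes, miR-2, miR-6, miR-11, miR-13, miR-14 and miR-308, the array held 97 probes. The 36 tested were miR-2 and miR-13 probes, of which 0 passed in either direction (limma). An unadjusted p under 0.05 (limma) was found for 1 of them, beside 15 of all 339 (4.42%). The median change of the 36 was -0.09 (log2) beside -0.09 over all 339 probes. The brightest miR-2 probe, bmo-mir-2a-1-p3_1ss1TG, was at -0.11 (-0.69 to 0.46), and the brightest miR-13 probe, api-miR-13a, at 0.15 (-0.97 to 1.28).

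Of the miRNAs of insect growth and insulin signalling, miR-8, miR-278, miR-305, miR-184 and let-7, 28 of 57 probes were tested. None passed in either direction (limma), and the median change was again -0.09. An unadjusted p under 0.05 (limma) was found for 3 of the 28, beside 15 of all 339 (4.42%). The probe dpu-miR-8_R-1, for a miRNA of the fly fat body, was at 0.02 (-0.95 to 0.99), and aga-miR-184 at -0.39 (-1.03 to 0.24). The probe aae-miR-278-3p_1ss12TC was at 0.50 (-0.70 to 1.70), with a single high reading of 9.16 on hypoxia 3.

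The likeness of other probes to ame-bantam was taken as Pearson's r of the log2 level over the 6 arrays, as a description. Of 288 compared probes detected on all 6 arrays, 2 had r above 0.9. The closest was bmo-mir-6497-p3_1ss1TA, a probe from a silkworm precursor (r = 0.948), then dpu-miR-8_R-1 (r = 0.908) and tur-miR-2-3p_L-2 (r = 0.898). Each was highest on normoxia 1, as ame-bantam was. Over so few arrays, shared differences between arrays enter such values.

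Per array, between 342 and 1001 of the 2546 probes were detected, of them 3 to 8 bantam probes. The number of arrays limits the precision of every change given. Muscle in the pools showed in dme-miR-1-3p, a muscle miRNA of many animals, at 11.85 to 13.63 (log2). Of 8 probes for miR-124, a nerve miRNA, 3 were detected on any array and none entered the test.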

How the data were processed

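Total RNA was labelled with Cy3 for a single-colour array, per the labels. The deposited scanner tables give each spot's median intensity and its standard deviation, linear, with no background taken off, per the file headers and the readings of empty spots. The deposited value table holds intensity that the authors had subtracted and scaled, by steps not given in the sources used here. It served as an alternative, as log2(value + 50).

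For local background, the 20 empty spots closest to a spot were taken and their median used. The normexp correction (offset 50) pulls the changes of dim probes towards 0. After control spots were removed, quantile normalization between arrays and log2 followed. Each probe had 1 spot. Groups came from the sample titles. The test was limma 3.58.1 in R 4.3.3 (lmFit, eBayes) with Benjamini-Hochberg adjustment over the 339 probes tested, checked on simulated arrays. Within-array differences were compared by an exact permutation test.

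The members and the lists of other miRNAs were chosen with earlier results of these data known. Named probes were all bantam probes, the 3 most alike of different stems, and the brightest tested probe of a listed stem. The brightest probes of miR-305 and let-7 were at -0.07 and -0.14 (log2), and those of the muscle list at 0.41 (miR-1) and -0.20 (miR-133), with 0 of 5 tested muscle probes passing (limma, lowest adjusted p = 0.918, and 0 with an unadjusted p below 0.05). Alternatives covered background, scaling, filter, detection limit, spread model, replicate block and arrays left out.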

Additional observations from a re-analysis of the deposited data

Results flagged for a closer look

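Of the 7 bantam probes that did not enter the comparison, 3 gave readings on hypoxia arrays that passed the detection limit and exceeded every normoxia array. Only hypoxia arrays were searched in this way. The share of other untested probes that do the same was not counted, so the 3 cannot be read as particular to bantam. The readings are before normalization between arrays, and the limit ran from 27.8 on hypoxia 2 to 94.5 on normoxia 3. Above background, dme-bantam-3p read 115 on hypoxia 1 and 75.02 on hypoxia 2, against at most 41.2 in normoxia. The probe cqu-bantam-3p read 191 and 115 on these arrays, against at most 81.9 in normoxia. On hypoxia 2, dme-bantam-5p read 36.0, against at most 16.6 in normoxia. In the authors' deposited values the same readings were 80.7 and 74.7 for dme-bantam-3p, 125 and 128 for cqu-bantam-3p and 22.5 for dme-bantam-5p, each also above every normoxia array. The 22.5 of dme-bantam-5p is below 32, the value above which a probe counted as detected in the authors' values. On hypoxia 3 none of these probes passed the limit. The difference between the groups was not tested for them. The calibration probes named 3M also read high on hypoxia 1 and 2, and their part in these readings was not tested.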

How the results depend on the processing

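No bantam probe passed under any of the 21 alternatives run (limma), and 0 to 1 of them had an unadjusted p under 0.05. That 1 was aae-bantam-3p after cyclic loess scaling (limma p = 0.0191), in the authors' values (0.0262), with array weights (0.00099, adjusted 0.0976) and without hypoxia 3 (0.0037). In these settings 15, 18, 72 and 62 of all 339 probes, in that order, had an unadjusted p under 0.05 (limma). Array weights gave hypoxia 3 the lowest weight, 0.168, so that setting and the one without hypoxia 3 both discount the same array. Over all probes 0 passed, except 1 without hypoxia 3. The probe aae-bantam-3p was not tested when detection on all 6 arrays was asked for, having entered through the group where it is high. Its unadjusted p-values above are thus no support for a rise. With single arrays left out its change ran from 1.03 to 2.32. The small change of ame-bantam turned to 0.039 with the 75th percentile, 0.0012 in the authors' values and 0.0094 with array weights, and ran from -0.22 to 0.10 with single arrays left out; those of api-bantam ran from -2.64 to 0.37 and those of mse-bantam from -0.14 to 0.37. Relative to ame-bantam, single arrays left out gave -2.54 to 0.33 for api-bantam and -0.045 to 0.47 for mse-bantam. Without hypoxia 1 and 2, added after seeing the data, the changes of ame-, api-, mse-bantam and aae-bantam-3p were 0.068, 0.20, -0.41 and -0.048, and those of the last 3 relative to ame-bantam 0.13, -0.48 and -0.12. The cause of these turns was not tested. With the replicate block 0 bantam probes passed, and 11 probes in all had an unadjusted p under 0.05 (15 without it). Arrays of the same number correlated at -0.25, -0.27 and -0.06 in their deviations from the group means, so their values showed no likeness. These correlations cannot show whether samples of the same number were collected or hybridised together. Other detection limits left 25 to 39 of the 66 bantam readings detected, and at 5 standard deviations api-bantam on hypoxia 1 was not.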

Other observations

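The array holds 59 pairs of probes, both detected on all 6 arrays, whose targets are identical but for 1 base more at the 3′ end of the longer. In each pair the difference in level was compared with its own median over the arrays, a comparison chosen after seeing the data. The largest departure of a pair had a median of 0.51 (log2) over the 59, and 41 pairs stayed under 1 on every array. For api-bantam and mse-bantam it was 5.64, on hypoxia 1, the second highest of the 59. The highest was that of isc-miR-2b_R+1 and isc-miR-2b, at 5.78 on normoxia 2, and dpu-miR-100 and aae-miR-100 followed with 3.89 on normoxia 1. The pair isc-miR-2b_R+1 and isc-miR-2b also departed on hypoxia 1, with a difference of -4.40 (log2) beside its median of -0.64. The cause of such departures was not tested.

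Single substitutions between probes of equal length were also read, in 70 pairs with a mean signal of at least 1000 in the brighter probe. Of these pairs 7 had a dimmer probe under 5% of the brighter. They made up 1 of the 16 pairs that differ at bases 1 to 8, 5 of the 27 at bases 9 to 15 and 1 of the 27 from base 16 on, with no test of the difference. The pair of ame-bantam and dme-bantam-3p, which differ by G11U, is among the 7, but dme-bantam-3p was detected on 2 of 6 arrays, so its share of the brighter signal and its place among the pairs are not measured. The other 5 pairs at base 11 ranged from 13.8% to 91.3%, so a change at that base did not always go with a dim probe. The change G20A between ame-bantam and api-bantam went with 60.7%, a mean that includes hypoxia 1. Pairs can share a probe, and these values do not separate binding from level.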
